A study of Homo sapiens with 6 samples.

Results

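Cytosolic ribosomal proteins are the protein part of the ribosomes that translate mRNA from the cell nucleus. Their genes were taken from the deposited table by symbol: RPL or RPS followed by digits and nothing more or by A or X, together with RPLP0, RPLP1, RPLP2 and RPSA, without pseudogenes and without paralogs whose names end in L. The rule found 77 of the 16659 genes analysed, 46 for the large and 31 for the small subunit. The cells were HepaRG, an established human liver tumour line, given in the labels as hepatic stem cells, and received no drug. RNA was sequenced in 3 wild-type libraries, the control, and in 3 libraries labelled as a functional knockout of PXR, the pregnane X receptor, a drug-sensing nuclear receptor encoded by NR1I2. Neither the making of the knockout nor whether it is 1 clone is given in the sources used here, nor do the labels say that the libraries of a group came from separate cultures. The p-values therefore measure the spread between these libraries, which may be technical, and loss of PXR function cannot be told apart from anything else in which these cells differ.

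Each ribosome holds a single copy of nearly every one of these proteins, and cells make them in balance with the rRNA that they bind. Most of their mRNAs start with a terminal oligopyrimidine (TOP) tract, a C followed by a run of C and T, through which the kinase mTORC1 and the RNA-binding protein LARP1 control translation and stability of the mRNA. Free RPL5 and RPL11, bound to the 5S rRNA, can block the ubiquitin ligase MDM2, so the family also links ribosome assembly to the control of cell division. In liver, growing and dividing cells are known for high ribosome production.

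The start of the transcript is shown here for 10 members from across the range of changes, chosen after their values were seen, since the TOP tract is the sequence that nearly all of the family is known to share. Sequences are from RefSeq (GRCh38.p14) and run 5′ to 3′ on the transcribed strand, from 10 bases before the annotated start through the first 20 bases of the transcript. Capitals mark the unbroken run of C and T that begins at the start with a C and goes on for at least 4 more pyrimidines. A sequence without capitals has no such run at its annotated start. Where a gene had more than 1 listed start, the one with the longest such run was printed. Among the 10 genes this applies to RPL11 and RPS19, with 2 listed starts each.
RPS21 (chr20:62387093-62387122, plus strand): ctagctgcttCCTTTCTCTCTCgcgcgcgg
RPL3 (chr22:39319604-39319633, minus strand): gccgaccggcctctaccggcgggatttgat
RPS18 (chr6:33272065-33272094, plus strand): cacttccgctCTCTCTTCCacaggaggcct
RPS3 (chr11:75399508-75399537, plus strand): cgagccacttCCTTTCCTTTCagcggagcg
RPL11 (chr1:23691796-23691825, plus strand): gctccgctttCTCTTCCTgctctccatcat
RPSA (chr3:39406710-39406739, plus strand): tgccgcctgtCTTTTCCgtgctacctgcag
RPS27 (chr1:153990752-153990781, plus strand): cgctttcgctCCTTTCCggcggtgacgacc
RPLP0 (chr12:120201092-120201121, minus strand): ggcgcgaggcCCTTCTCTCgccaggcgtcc
RPS19 (chr19:41860245-41860274, plus strand): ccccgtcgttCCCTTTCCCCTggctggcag
RPS26 (chr12:56041908-56041937, plus strand): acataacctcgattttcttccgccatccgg
Of the 77 genes, 62 had at least 1 start in the RefSeq table, and 46 of these (74.2%) had a tract at a listed start, against 1404 of 27305 genes (5.14%) in the whole table. RPL3 and RPS26 are among the 16 without. The presence of a tract is a description of the listed start and not a measurement of these cells.

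Levels are in scaled CPM, the deposited signal on a linear scale, which is reads relative to a library size with a further factor per library. They are not divided by transcript length, so they are compared between groups and not between genes. Only RNA was measured, so a change given for a protein or a part of the ribosome is that of its mRNA. The values gave estimated depths of 11358837 to 20945674 reads in wild-type and 28154244 to 33392938 in knockout libraries. The weakest member in any library rested on 1875 estimated reads, so all 77 passed the filter on low values and depth does not limit their comparison. Some other genes given below, such as PECAM1, rested on far fewer reads. The targeted gene NR1I2 was at 8.24, 7.04 and 7.60 scaled CPM in wild-type and at 13.1, 13.4 and 14.3 in knockout libraries, a sum over the whole gene that does not check a functional knockout. Of 12 hepatocyte markers, all measured, all 12 were higher in the knockout. Their summed level was 2481 to 2568 in wild-type and 46480 to 47692 scaled CPM in knockout libraries. Of 20 cell cycle genes, 18 were lower and 2 higher, with sums of 1869 to 1892 and of 777 to 794 scaled CPM. Of 8 bile duct markers 5 were measured, 2 lower and 3 higher, with sums of 587 to 619 and 619 to 651 scaled CPM. SPP1 went from 382 to 43.6 and KRT19 from 111 to 334 scaled CPM. Of 10 stellate and mesenchymal markers 7 were measured, 2 lower (PDGFRB and DES) and 5 higher, with sums of 116 to 122 and 487 to 510 scaled CPM, most of them DCN. Of 7 endothelial markers 2 were measured: KDR went from 53.3 to 218 and PECAM1 from 1.58 to 0.35 scaled CPM, with sums of 54.8 to 55.1 and 215 to 222. Of 8 leukocyte markers 3 were measured, 1 lower and 2 higher, with sums of 13.6 to 16.8 and 22.7 to 24.1 scaled CPM. The part of cell state, growth or other cell types in the changes below was not tested. In bulk RNA, fewer cells of a type and less RNA per cell cannot be told apart.

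Ribosomal protein mRNAs were lower as a family in the knockout. With limma (adjusted p under 0.05 over all 16219 tested genes), 75 of the 77 genes were lower, 1 was higher (RPS26) and 1 did not pass (RPS19). Of all tested genes, 39.6% were lower, 40.3% higher and 79.9% either. In counts, 6534 genes were higher and 6426 lower, a split that became 5358 and 7681 with equal column sums, where 76 members were lower. All 3 knockout libraries lay below all 3 wild-type libraries at the same number of members, 75, against 40.0% of all tested genes. The median log2 fold change (knockout minus wild type, on the log2 scale of scaled CPM + 0.5) was -0.86 for the members and 0.01 for all tested genes. Other abundant genes did not share the shift: among 2041 other genes with a mean of at least 100 scaled CPM, 40.8% were lower, with a median of 0.06.

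**Figure D1:**
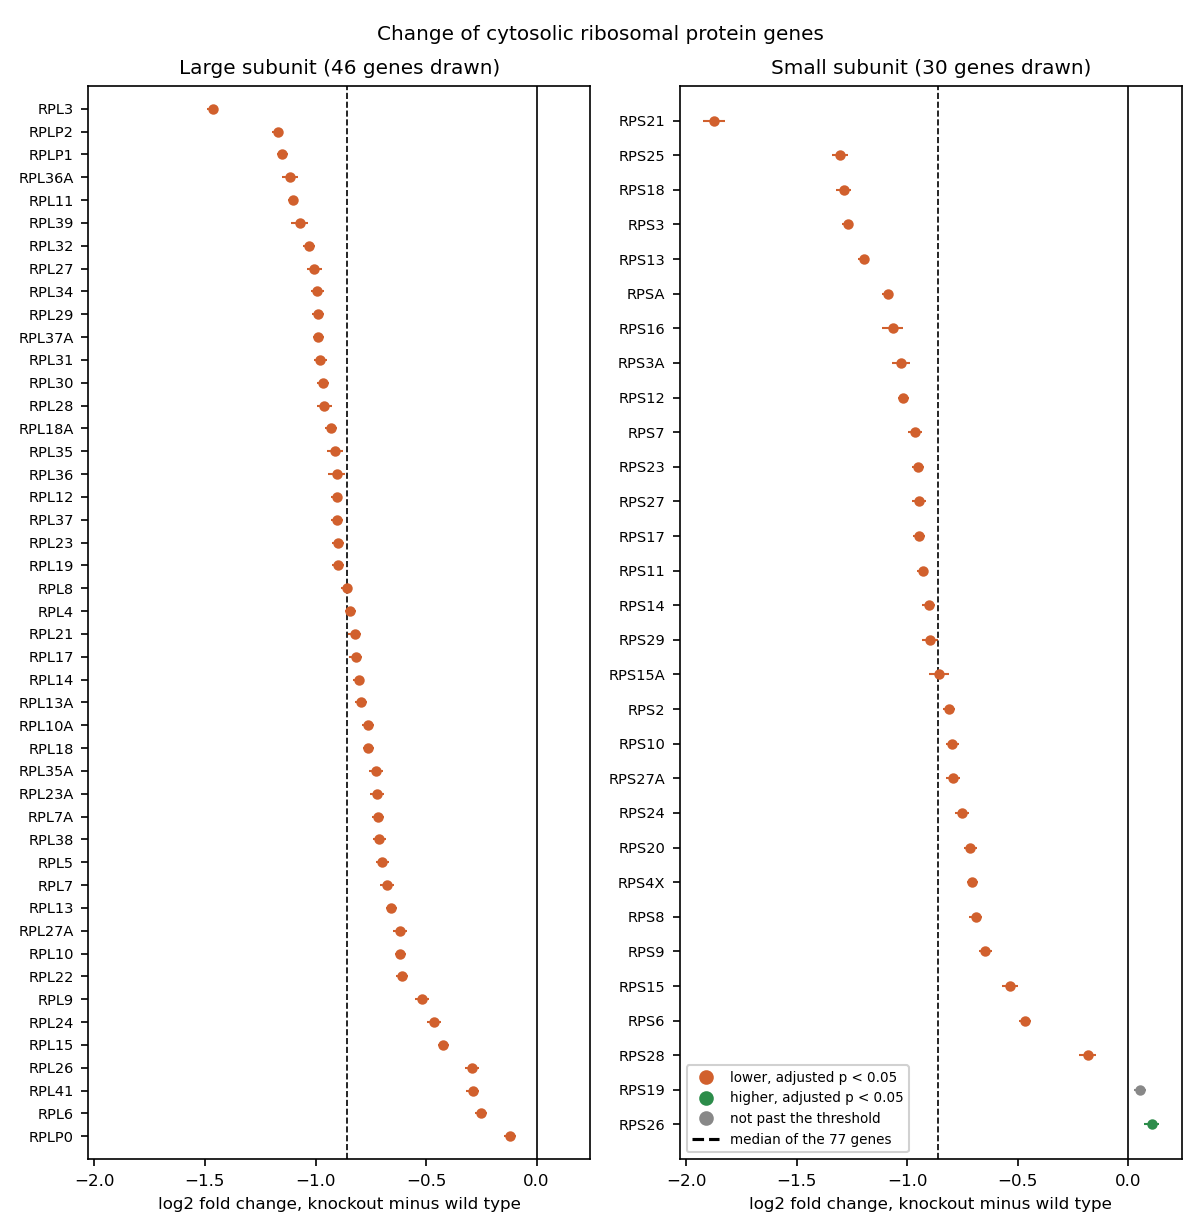
Log2 fold change (knockout minus wild type) of the ribosomal protein genes, with its standard error as a bar, split by subunit; the dashed line is the median of the 77 genes (-0.86) and the solid line is no change. All but RPS19 and RPS26 are lower, and RPS21 and RPL3 lie farthest to the left; 1 small subunit gene is not drawn.

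Summed over the 77 genes, the wild-type libraries held 50516, 52509 and 51683 scaled CPM, and the knockout libraries held 29667, 29725 and 29378. The groups were far apart, with means of 51569 ± 1002 and 29590 ± 186 (SD, n = 3 each), so that the knockout held 57.4% of the wild-type sum. As a share of all signal, the members took 5.39%, 5.54% and 5.49% in wild type and 2.88%, 2.85% and 2.83% in the knockout. The small subunit sum fell to 54.6% and the large subunit sum to 59.2% of wild type. The ratio of the large to the small subunit sum was 1.57, 1.54 and 1.57 in wild type and 1.69 in each of the 3 knockout libraries, without overlap. Abundant members weigh most in such sums. The large subunit genes RPLP0, RPL6 and RPL41, all on chromosome 12, fell little. Their means went from 1677 to 1544, from 929 to 781 and from 915 to 749 scaled CPM. A ratio without them was not computed, so the shift is not given as one of the subunits as wholes.

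The members moved close together. Their log2 changes had an SD of 0.32 across genes, against 1.14 for all tested genes, and 54 of the 77 lay within 0.25 of their median. All tested genes include many at far lower levels, and the spread was not compared with genes of like level. The middle of the family spanned -0.99 to -0.70 (first to last quartile), and 18 genes fell by at least 1 on the log2 scale. Standard errors of a member's change ran from 0.024 to 0.051, so differences among members were often larger than the spread between libraries.

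RPS21, a small protein of the small subunit (ENSG00000171858, chromosome 20, 62387116 to 62388520 in GRCh38), had the largest fall. Its level was 329, 350 and 326 scaled CPM in wild type and 85.8, 101 and 86.9 in the knockout. The groups lay far apart, with a knockout mean at 27.2% of wild type, and the log2 fold change was -1.87 ± 0.051 (SE, limma adjusted p = 2.36e-13).

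RPL3 (chromosome 22, 39312882 to 39320389), which lies near the peptidyl transferase centre where the peptide bond is made, followed. It was at 1500, 1499 and 1500 scaled CPM in wild type and at 537, 537 and 555 in the knockout, a fall of 1.47 on the log2 scale (SE 0.025). RPS3 sits at the entry of the mRNA channel of the small subunit and also has a known part in DNA repair. It was at 852, 892 and 868 against 360, 361 and 362 scaled CPM (log2 -1.27 ± 0.025). RPL3 and RPS3 both fell further than the family's median. RPS25, a head protein needed by some viral internal ribosome entry sites, was at 511, 521 and 508 against 216, 213 and 195 scaled CPM (log2 -1.30 ± 0.035). RPS18, another protein of the head, was at 1338, 1494 and 1429 against 588, 581 and 574 (log2 -1.29 ± 0.035). The groups did not overlap at any of these 5 genes.

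**Figure D2:**
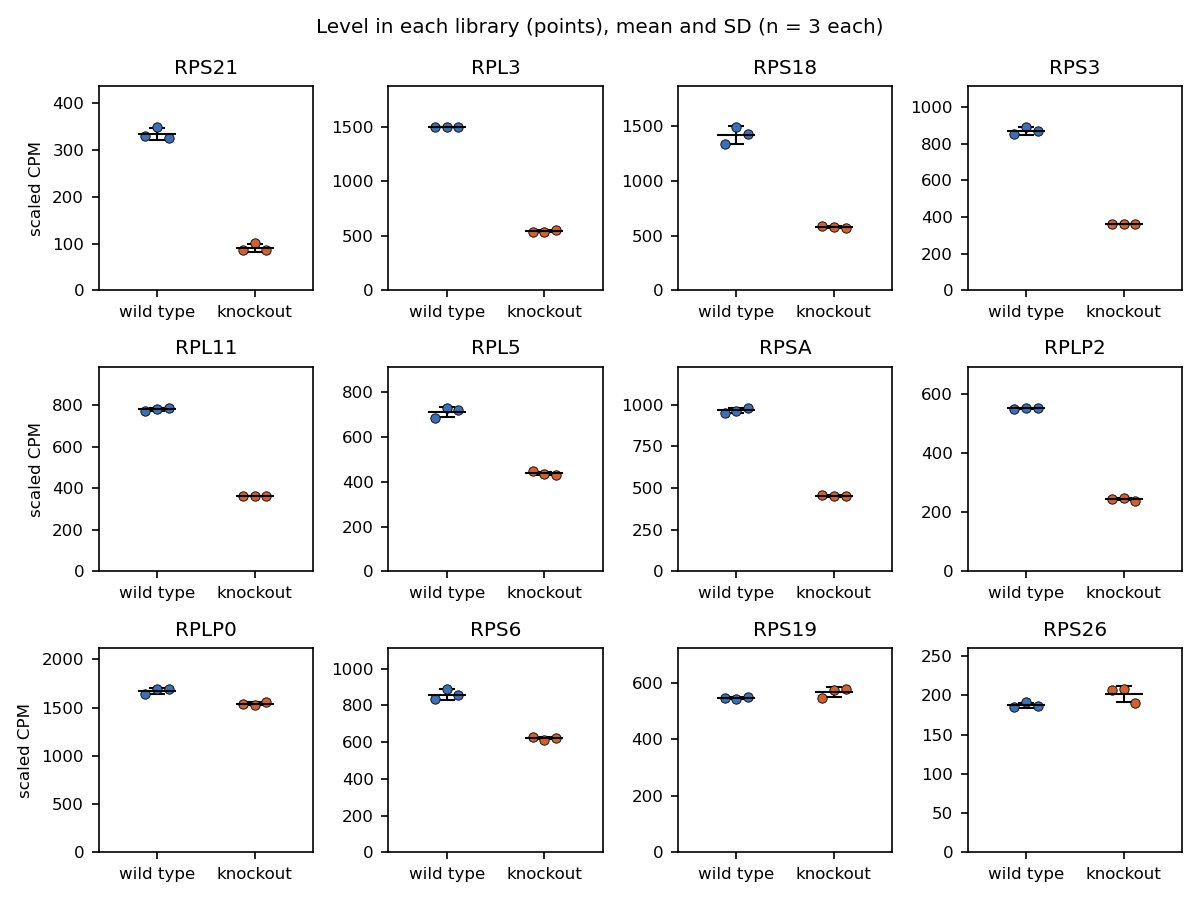
Level in scaled CPM of 12 members in each library (points; 3 wild-type, 3 knockout), with the mean and SD of each group as a bar; each axis starts at 0. The groups are apart for the first 10 genes, least so for RPLP0, and overlap for RPS19 and RPS26.

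The mRNAs of the 5S rRNA-binding proteins RPL5 and RPL11 both fell, by different amounts. RPL11 was at 773, 783 and 788 scaled CPM in wild type and at 366, 361 and 364 in the knockout (log2 -1.10 ± 0.024). RPL5 was at 685, 729 and 718 scaled CPM in wild type and at 446, 436 and 432 in the knockout (log2 -0.70 ± 0.028). MDM2, the ligase that these proteins act on, went from 179 ± 6.51 to 2993 ± 39.2 scaled CPM (SD, n = 3 each). It was called higher, as was the cell cycle inhibitor gene CDKN1A (log2 4.22 ± 0.038). CDKN2A, another such gene, was called higher by only 0.19 ± 0.065, and its change was 0.059 with equal column sums. MDM4, a partner of MDM2, was called lower with a log2 change of -0.27 ± 0.032.

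The mRNAs for the stalk of the large subunit, which recruits elongation factors, did not move as a unit. RPLP1 and RPLP2 form the tip of the stalk. RPLP1 was at 691, 673 and 693 scaled CPM in wild type and at 306, 311 and 308 in the knockout, a fall of 1.151 (SE 0.024) on the log2 scale. RPLP2 was at 549, 552 and 550 scaled CPM in wild type and at 246, 247 and 239 in the knockout (log2 -1.17 ± 0.025). RPLP0, the base of the stalk, was at 1641, 1694 and 1695 scaled CPM in wild type and at 1540, 1529 and 1562 in the knockout. Its groups did not overlap, but its fall of 0.12 (SE 0.027, limma adjusted p = 0.000919) was the smallest among the 75 lower genes.

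In the head of the small subunit, 13 of 14 members were lower (median -0.92), and outside it 16 of 17 (median -0.90). RPSA, a small subunit protein also known as the laminin receptor, was at 951, 965 and 981 scaled CPM in wild type and at 460, 452 and 450 in the knockout (log2 -1.09 ± 0.025). RPS27A, made as a fusion with ubiquitin, fell by 0.79 (SE 0.032). RPS6, the ribosomal target of the kinase S6K below mTORC1, changed less than most: 833, 890 and 854 scaled CPM in wild type against 627, 614 and 623 in the knockout, a fall of 0.47 (SE 0.028). RPS2 and RPS4X fell by 0.81 (SE 0.027) and 0.70 (SE 0.026). RPS15, of the head, had a change of -0.53 ± 0.035. RPS28, also of the head, was at 155, 143 and 152 scaled CPM in wild type and at 126, 137 and 132 in the knockout. Its groups did not overlap but came close, and the change was -0.18 ± 0.037 (limma adjusted p = 0.000384).

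At the rim of the peptide exit tunnel all 7 members were lower (median -0.90, from -1.07 for RPL39 to -0.29 for RPL26). RPL23A, which docks the signal recognition particle there, fell by 0.72 (SE 0.031). Of the genes for proteins shared with bacteria and archaea, 33 of 33 were lower, with a median of -0.86. Of the others, 42 of 44 were lower, with a median of -0.90, a difference that was not tested. RPL10, added late and needed to join the subunits, fell by 0.62 (SE 0.026), RPL4 by 0.84 (SE 0.025) and RPL13A, known for a part in translational silencing outside the ribosome, by 0.79 (SE 0.025). RPL36A and RPL28 fell by 1.11 (SE 0.036) and 0.96 (SE 0.035). RPL22 fell by 0.61 (SE 0.027). RPL41, the shortest protein of the ribosome, was at 902, 923 and 922 scaled CPM in wild type and at 767, 764 and 718 in the knockout (log2 -0.29 ± 0.029). RPL6 was at 916, 953 and 917 in wild type and at 801, 772 and 769 in the knockout (log2 -0.25 ± 0.028). Both kept their groups apart by a small step. The other 46 members, not named by rule, were all lower, with changes from -1.20 to -0.29 and a median of -0.90.

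RPS19 and RPS26 were the members that were not lower. RPS19, a protein of the small subunit head and the gene most often mutated in Diamond-Blackfan anemia, an inherited failure of red cell production, was at 547, 542 and 550 scaled CPM in wild type and at 546, 575 and 578 in the knockout. The groups overlapped, and the log2 change of 0.05 ± 0.027 did not pass (limma adjusted p = 0.0967). RPS26, which lies at the mRNA exit of the small subunit, was at 185, 191 and 186 scaled CPM in wild type and at 207, 208 and 191 in the knockout. Knockout library 3 lay inside the wild-type range, and the log2 change was 0.11 ± 0.035 (limma adjusted p = 0.0120). The sign of both changes turned with equal column sums (to -0.086 for RPS19 and -0.032 for RPS26) and with quantile normalization (to -0.033 and -0.018), so no direction is given for either. Without knockout library 1, RPS19 passed as higher (log2 0.077, limma adjusted p = 0.0175). Without knockout library 1 or without knockout library 2 the call of RPS26 was lost (limma adjusted p = 0.0529 and 0.0655). Among 19 members listed here as mutated in Diamond-Blackfan anemia, RPS19 and RPS26 included, 17 were lower with a median of -0.79. The list may not be complete. Of the other members, 58 of 58 were lower with a median of -0.90, a difference that was not tested.

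Some of the members that stood apart lay on chromosomes where other genes shifted too, and others, among them RPS21, RPS25, RPS18, RPS28 and RPS19, did not. The 4 members on chromosome 12, RPS26, RPLP0, RPL6 and RPL41, had changes between -0.29 and 0.11 (median -0.18), and the median of 840 other tested genes of that chromosome was 0.34. RPL3 is the sole member on chromosome 22, where the median of 376 other genes was -0.77. With the median of its chromosome taken out of each gene, RPL3 had a change of -0.69, RPS26 of -0.23 and RPLP0 of -0.46. The SD across members then went from 0.32 to 0.28, with the median at -0.85, and all but RPS19 were lower (76 of 77). RPS21 is the sole member on chromosome 20, where the other genes had a median of -0.10. RPS25 is on chromosome 11 and RPS18 on chromosome 6, where the medians were 0.05 and -0.04. RPS19 and RPS28 are on chromosome 19, where the median was 0.05, and RPS28 was at -0.24 with that taken out.

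Within 1 Mb to either side, a window chosen after these values were seen, neighbours shifted at some members that stood apart and at some that did not. Tested neighbours of RPS26 had a median of 0.60, and 36 of 52 were called higher. The medians were 0.60 for neighbours of RPL41 and of RPL26 and 0.49 for those of RPLP0, but 0.22 for those of RPL6, the other member on chromosome 12. RPL27A, whose change of -0.62 did not stand apart, had neighbours at 0.45, and RPS7 (-0.96) and RPS24 (-0.75) had few neighbours, 6 and 5, at -0.68 and -0.49. For RPL3 the median was -0.73, with 21 of 29 neighbours lower, and for RPS21 it was 0.01. All 77 members lay below the median of their neighbours, by 0.84 at the median, RPS19 by the least (0.02). The SD of these differences was 0.28, as with chromosome medians. What sets the shift of these regions was not tested.

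**Figure D3:**
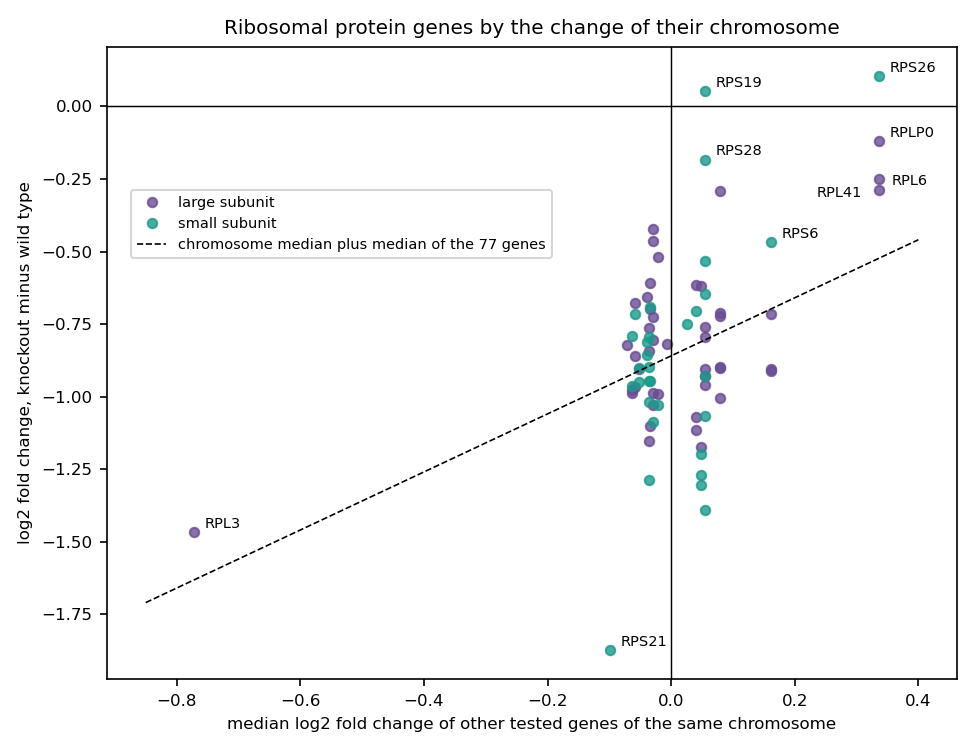
Log2 fold change of each of the 77 members (vertical axis) against the median log2 fold change of the other tested genes of its chromosome (horizontal axis), by subunit; the dashed line adds the median of the 77 genes to the chromosome median. RPL3 on chromosome 22 and the 4 members of chromosome 12 lie at the ends, while RPS21 and RPS19 differ from members of chromosomes with like medians.

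The 46 members with a TOP tract at a listed start had a median change of -0.90, and 45 of them were lower. The 16 with a start but no tract there had a median of -0.79, with 15 lower, and the 15 without a listed start were all lower (median -0.86). The ETS-type motif CCGGAAG was found, on either strand, in 26 of 77 windows of 300 bases around a start (33.8%), which come from the 62 members with a start, some with 2 or 3, and in 10.3% of all windows. AAGATGGC, a YY1-type motif, was in 6 windows (7.79% against 2.89%), and the E-box CACGTG in 4 (5.19% against 7.26%). TATAAA was in 5 (6.49% against 11.5%), the M8 motif, a palindrome, in 5 (6.49% against 0.42%) and the NRF1-type motif in 1 (1.30% against 1.24%). None of the motifs contains another. A match says only that the letters are there. By GENCODE 29, 28 members hold a small nucleolar RNA gene on their strand, and all 28 were lower (median -0.90), against 47 of 49 and -0.86 for the others.

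Of 6 measured paralogs of ribosomal proteins, 2 were lower, 3 higher and 1 did not pass. RPS27L encodes a protein much like RPS27. It was at 66.0, 70.4 and 69.6 scaled CPM in wild type and at 296, 292 and 280 in the knockout (log2 2.07 ± 0.033, limma adjusted p = 8.69e-16), while RPS27 was at 557, 563 and 569 and then at 300.1, 298 and 278 (log2 -0.95 ± 0.031). The level of RPS27L was 11.9%, 12.5% and 12.2% of that of RPS27 in wild type and 98.5%, 97.8% and 101% in the knockout. These percentages are of the deposited values, not per length, and how reads common to such similar genes were split is uncertain. Their sum was 632 ± 7.95 in wild type and 581 ± 20 scaled CPM in the knockout (SD, n = 3 each), or 92.0% of wild type.

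RPL36AL went from 82.2 ± 2.94 to 88.3 ± 1.21 scaled CPM (log2 0.10 ± 0.034), a sign that turned with equal column sums (-0.035), and its level relative to RPL36A went from 21.3% ± 0.64 to 49.8% ± 2.51 (SD, n = 3 each). RPL22L1, in contrast, fell by 1.20 (SE 0.058), more than RPL22, and went from 24.0% ± 2.31 to 15.8% ± 0.37 of it. RPL26L1 had a change of 0.01 ± 0.063 (limma adjusted p = 0.932) and RPL7L1 of -0.34 ± 0.032. RPL10L, a copy of RPL10 without introns that is best known from testis, is listed at 0 in all 3 wild-type libraries and was at 4.28, 3.96 and 3.02 scaled CPM in the knockout.

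**Figure D4:**
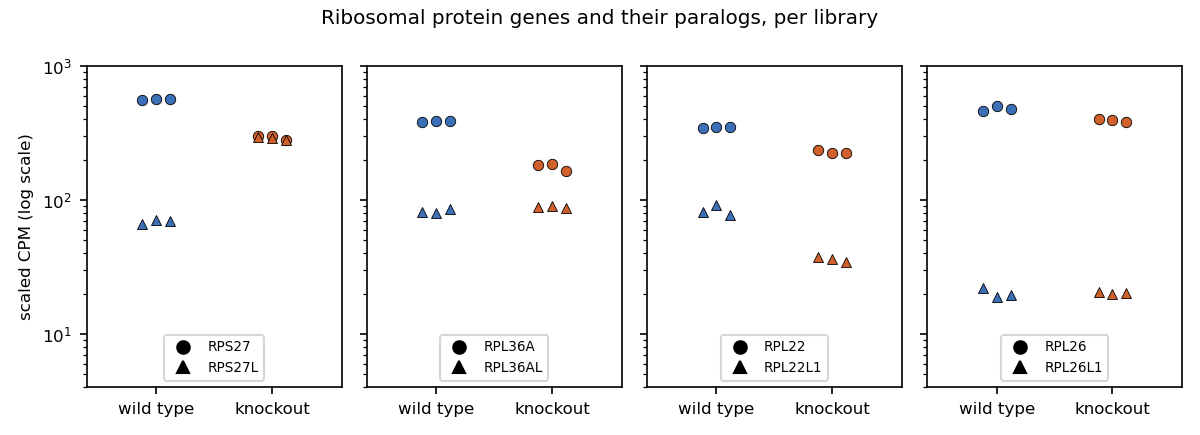
Level in scaled CPM (log axis) of 4 members (circles) and their paralogs (triangles) in each of the 3 wild-type and 3 knockout libraries. RPS27 and RPS27L meet in the knockout, RPL36AL lies between 80.0 and 89.6 throughout while RPL36A falls, and RPL22 and RPL22L1 both fall.

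Ribosomal protein genes have many processed pseudogenes, and reads shared between copies leave some members uncertain. The table held 25 pseudogene rows of 17 members, which summed to 1.36% of the members' signal in wild type and 1.56% in the knockout. RPL9P9 was at 340.3 ± 21.5 scaled CPM in wild type, 102% of RPL9, and at 230.3 ± 4.09 in the knockout, 98.8% of it, so the level of RPL9 itself is uncertain. RPL23AP42 had 58.5% and 56.5% of the signal of RPL23A. With the pseudogene rows added to their member, the log2 changes were -0.54 in place of -0.52 for RPL9 and -0.68 in place of -0.72 for RPL23A.

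The mRNAs of other ribosomal proteins that the symbols of the rule leave out also fell. FAU, which encodes RPS30 as a fusion with a ubiquitin-like protein, went from 226 ± 8.13 to 161 ± 5.23 scaled CPM. RACK1, a signalling scaffold on the head of the small subunit, went from 1188 ± 19.5 to 587 ± 5.01 (SD, n = 3 each). Mitochondrial ribosomal proteins, which belong to a separate ribosome, did not share the shift in this scaling. Of 78, 32 were lower and 28 higher, with a median of -0.03, close to the shares among all tested genes. With equal column sums 42 were lower and 19 higher. MRPS21 had the largest fall (log2 -1.54 ± 0.038) and MRPS24 the largest rise (0.73 ± 0.037), which went to 0.30 with chromosome medians taken out, below MRPL44 (0.71).

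Most genes that make rRNA and assemble the subunits were lower too. Of 36 genes of RNA polymerase I and rRNA processing, 35 were lower and none higher (median -0.81). EBNA1BP2, which helps form the large subunit, went from 209 ± 5.49 to 53.2 ± 1.97 scaled CPM, and PES1, of the PeBoW complex and on chromosome 22, from 129 ± 2.00 to 39.6 ± 2.56 (log2 -1.69, or -0.92 with chromosome medians taken out). Of 25 assembly and export factors, 21 were lower and 2 higher (median -0.57). RPF2, which brings the 5S rRNA complex with RPL5 and RPL11 into the ribosome, went from 102 ± 2.21 to 41.6 ± 1.49 scaled CPM, and EMG1, an rRNA methyltransferase, from 38.7 ± 1.56 to 17.5 ± 0.27. SBDS, which with EFL1 frees the large subunit of EIF6, rose from 66.4 ± 4.05 to 201 ± 1.0 scaled CPM. TSR2, the chaperone that delivers RPS26, rose by 0.34 (SE 0.050).

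Of 18 other mRNAs with a TOP tract, which include FAU and RACK1, 13 were lower and 2 higher (median -0.54). EIF3L, on chromosome 22, fell most (-1.88 ± 0.029, or -1.11 with chromosome medians taken out). The elongation factor genes EEF1B2 and EEF1G had changes of -0.99 ± 0.029 and -0.99 ± 0.025, while EEF1A1 changed by -0.22 ± 0.039 and EEF2 by -0.05 ± 0.033 (limma adjusted p = 0.167). These values depended on the scaling: with quantile normalization EEF1A1 was at -0.66 and EEF2 at -0.46. The count of lower TOP mRNAs was 16 with equal column sums and 17 with quantile normalization. EIF3F and EIF4B were called higher, by 0.38 ± 0.027 and 0.09 ± 0.026, the latter a sign that turned with equal column sums (-0.043). Of 28 further initiation factors, listed without those among the TOP mRNAs such as EIF3L, 18 were lower and 4 higher (median -0.15). Among these 28, EIF3D and EIF3C fell most (-1.66 ± 0.027 and -1.35 ± 0.034). EIF3D is on chromosome 22, and with chromosome medians taken out it was at -0.89 and EIF3C at -1.31. EIF4G2 and EIF4A1 were at 0.64 ± 0.025 and 0.19 ± 0.025, and with equal column sums at 0.50 and 0.049.

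Of 25 genes of the mTORC1, LARP1 and MYC network, 10 were lower and 11 higher (median 0.04), close to all tested genes. SESN2 and SESN1 rose most, from 9.83 ± 0.71 to 74.3 ± 1.74 and from 34.7 ± 2.22 to 155 ± 5.29 scaled CPM. TSC2 and MXI1 fell most, from 217 ± 2.89 to 99.2 ± 4.64 and from 40.4 ± 0.65 to 22.3 ± 1.38. LARP1 had a change of -0.12 ± 0.027 and MTOR of -0.15 ± 0.029, and both were called lower. These lists are described by their counts, without a test of a list against other genes.

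**Figure D5:**
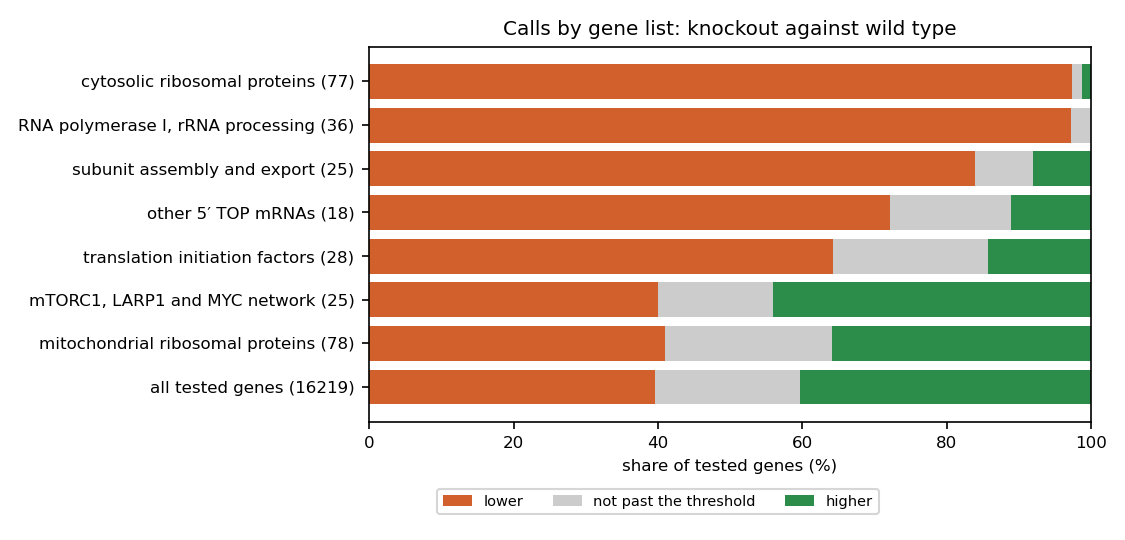
Share of tested genes (horizontal axis, %) called lower, higher or not past the threshold in each list, with the number of tested genes in brackets. The cytosolic ribosomal proteins (75 of 77 lower) and the genes of RNA polymerase I and rRNA processing (35 of 36) stand at the top. The mitochondrial ribosomal proteins lie near all tested genes.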

How the data were processed

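The members and the gene lists were chosen with earlier results of these data known. The authors deposited 1 table of linear signal per gene and library, named for log2 CPM; the submitters' processing notes list hg38 with Bowtie2, Trim Galore, FastQC, limma and edgeR, in no given order, and the sample titles name RSEM. Their versions, the annotation and any gene filter were not stated in those sources. RSEM estimates counts and shares ambiguous reads between near-identical genes, which touches members with pseudogenes. Low values step in whole reads for 67.9% to 76.6% of values under 20 reads, within 0.006 of a read, which gave the depths but not a count test.

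Of 16673 rows, 14 second pseudoautosomal copies were left out and 16608 identifiers matched GENCODE 29, whatever their version. Genes above 1 scaled CPM in at least 3 of 6 libraries were fitted with limma 3.58.1 in R 4.3.3 on log2(scaled CPM + 0.5), by group, with eBayes and a trend of variance on mean; p-values are two-sided and were adjusted over 16219 genes (Benjamini-Hochberg). Tested on simulated data made for knockout against wild type (16219 genes), the fit recovered 88% of 1.5-fold, 90% of 2-fold and 100% of 4- and 8-fold changes, with 6 false among 195 calls. That simulation changed 200 genes, in both directions, at a fixed dispersion of 0.005 and without a difference in scaling. Far more genes were called in the real data, so it does not give the error rate of this comparison. Pairs of libraries within a group had a mean chi-square per gene of 2.25 to 9.95 on estimated reads, so none were taken as 1 library. The median per gene was lower, 0.64 to 0.92, so the means rest on a part of the genes. Named members were a fixed set of 20, those not lower, the 6 largest falls, the 6 smallest changes and the 3 highest and 3 lowest levels; of other lists, all paralogs and fusions and up to 2 largest rises and falls. Some genes that the rule names are not reported here. Genes named beyond that, with the windows of 1 Mb, were chosen after their values were seen. Alternatives were other pseudocounts, no filter, other scalings, no trend, a replicate block, leaving out each library and taking out chromosome medians. Python 3.11.15, pandas 2.3.3 and matplotlib 3.10.9 were also used.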

Additional observations from a re-analysis of the deposited data

How the results depend on the processing

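The count of lower members was 75 or 76 under every alternative run. The count of higher members, 1 (RPS26), became 0 with equal column sums, such sums leaving out small RNA genes, quantile normalization, no mean-variance trend, chromosome medians taken out and equal sums without the members, the last an alternative chosen after seeing the data; leaving out each library gave 0 to 1. For RPS19 the log2 change turned to -0.086 with equal sums, -0.105 when small RNA genes were left out of the sums, -0.033 with quantile normalization, -0.0033 with chromosome medians taken out and -0.13 with equal sums without the members; for RPS26 the same settings gave -0.032, -0.050, -0.018, -0.23 and -0.071. The other 29 named members kept their call and direction under all alternatives. Equal sums moved the median of all genes from 0.01 to -0.12 and that of the members from -0.86 to -0.997, and the split of all calls from 6534 higher and 6426 lower to 5358 and 7681 (5940 and 7022 with quantile normalization, 5110 and 8083 with equal sums without the members). The summed level of the members, 0.57 of wild type, was 0.52 with equal sums and 0.52 with quantile normalization. Among the other lists, TOP mRNAs called higher went from 2 to 1 with equal sums (small RNA genes counted or not), quantile normalization, chromosome medians taken out and equal sums without the members. Initiation factors called higher went from 4 to 1 with equal sums of all 3 kinds. With equal sums without the members, mitochondrial ribosomal proteins called higher went from 28 to 17 and network genes from 11 to 6. The cause was not tested.

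Same-numbered libraries of the groups share only a number: correlations of their deviations were -0.02, -0.06 and 0.02. With the replicate block, 75 members were lower and 1 higher, and all genes called were 6518 higher and 6398 lower. Each of the members had 1875 or more estimated reads in every library.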
